A study of Homo sapiens with 16 samples.

Results

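The proteins of the mitochondrial ribosome, which makes the few proteins encoded in mitochondrial DNA, come from nuclear genes. Members of this family were taken as the gene symbols that begin with MRPL or MRPS, followed by a number and at most 1 letter. The rule found 77 of the 26485 symbols listed, 48 named for the large subunit (MRPL) and 29 for the small subunit (MRPS), on 21 chromosomes. The names follow the historical subunit assignment, and a few do not match the place of the protein: MRPS30 and MRPS18A are found in the large subunit, and MRPS36 is now listed as KGD4, a component of the alpha-ketoglutarate dehydrogenase complex. They were kept where the symbol puts them.

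The cells came from MDA-MB-231, an established human line of triple-negative breast cancer, given in the labels as a xenograft cell line and grown in dishes without treatment. Ribosome-protected fragments (footprints, the pieces of mRNA that ribosomes shield from nuclease) and total RNA were sequenced from cells with CRISPR interference (CRISPRi, a guide RNA that brings a repressor to its target) directed at tRNA-Ile-GAU or, as control, at eGFP. Each guide was combined with a control construct or with a construct that expresses tRNA-Ile-UAU, so all cells carried both CRISPRi and a construct. The 4 conditions were measured by both assays with 2 libraries each, 16 in all, in a study of how translation depends on isoleucine tRNAs. In the text, the guide means the tRNA-Ile-GAU guide and the construct the tRNA-Ile-UAU construct. The labels number the replicates without saying that they are separate cultures, or whether a line is 1 clone or a pool. P-values therefore measure only the spread between these libraries, which may be technical. The level of either tRNA was not analysed here, so effects of the guide, of the loss of its tRNA and of the cell population that carries it cannot be told apart.

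Mitochondrial ribosomal proteins are translated on cytosolic ribosomes, carried into the mitochondrial matrix and assembled there on 2 ribosomal RNAs of mitochondrial origin. Many members have counterparts in bacterial ribosomes, while others are found only in mitochondria. Footprints on their mRNAs therefore report cytosolic synthesis of the parts of the mitochondrial machine, not translation inside mitochondria. Both subunits are needed to make the core subunits of the respiratory chain.

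Members received 2013 to 5333 of the 358340 to 938909 counts of a footprint library, and 5091 to 14387 of the 2512247 to 5446599 counts of a total RNA library. In footprints every eGFP library (at most 607919 counts) was shallower than every library of the other guide (at least 639320). The replicate 1 total RNA library with both guide and construct, the deepest, stood apart: members took 0.264% of its counts against 0.197% to 0.229% in the other 7 total RNA libraries. The family's ratio, the medians and the named values that it moved by over 1.5 times are also given without it. Of the 6 markers fixed for these cells, VIM ran at 11443 to 13913 CPM (counts per 1000000 counts on genes) in footprints, and CD44, AXL, MSN, CAV1 and ANXA1 were also high in every library. The luminal receptor gene ESR1 was at 0 in 8 of 8 footprint libraries, and the fibroblast gene DCN was at 0 in all 16. Other genes of these lists were low but had counts in all 16: luminal EPCAM (9.87 to 21.3 CPM in footprints) and GATA3, and fibroblast COL1A1 and PDGFRB. The summed luminal, fibroblast and endothelial markers stayed at or below 32.6 CPM in both assays. The 3 immune markers summed to 125 to 172 CPM in footprints and 6.81 to 32.1 CPM in total RNA, nearly all from CD68; CD3E was at 0 in all 16.

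Members took more than 2 times as large a share of footprints as of total RNA. In footprints, with the eGFP guide, the share was 0.596% and 0.576% with the control construct and 0.562% and 0.576% with the tRNA-Ile-UAU construct. With the tRNA-Ile-GAU guide it was 0.571% and 0.596% with the control construct and 0.568% in both libraries with the tRNA-Ile-UAU construct. These 8 values overlapped between the guides. Their total RNA share was 0.229% and 0.219%, then 0.197% and 0.217%, then 0.211% and 0.218%, and 0.264% and 0.216%, in the same order of conditions. In total RNA the replicates with both guide and construct differed by more than those of any other condition. Large subunit genes took 1.75 to 2.03 times the footprint counts of small subunit genes and 1.51 to 1.65 times their total RNA counts. The family's footprint share divided by its total RNA share was 2.61 with the eGFP guide and control construct, 2.75 with the tRNA-Ile-UAU construct alone, 2.72 with the tRNA-Ile-GAU guide alone and 2.37 with both, or 2.63 with both without the total RNA library that stood apart.

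**Figure D1:**
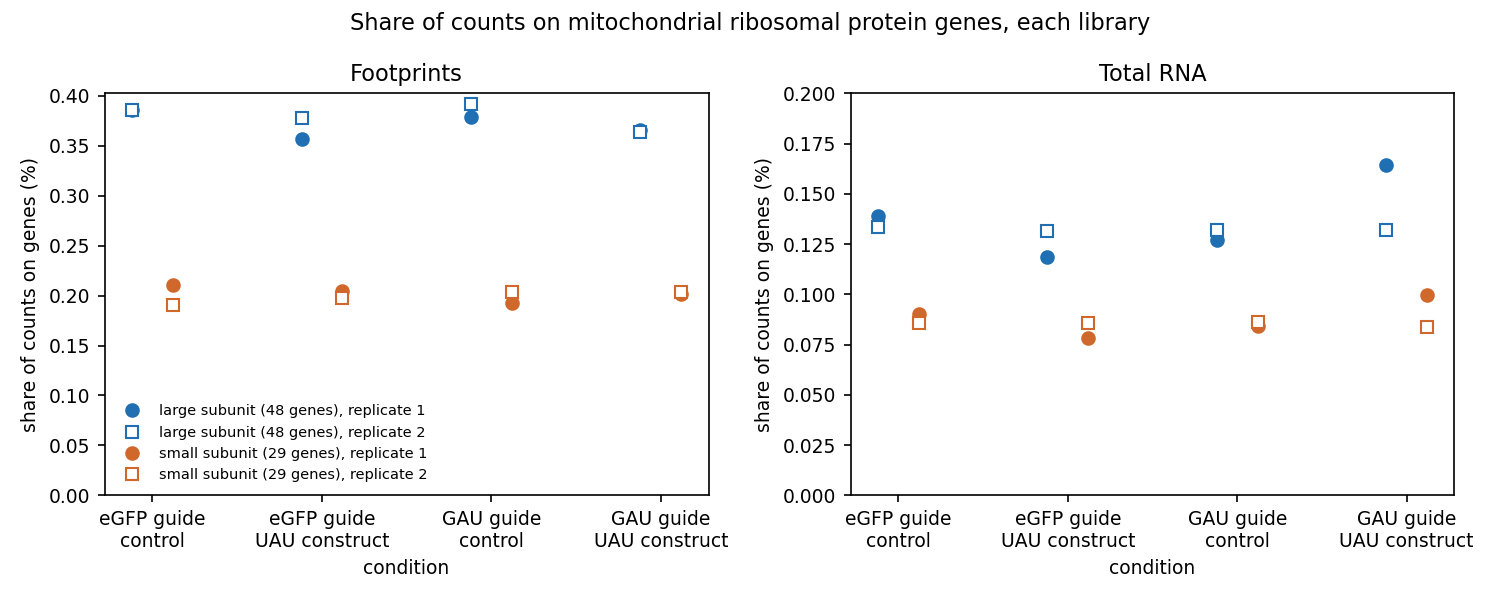
Share of all counts on genes (%, vertical axis) taken by the 48 large subunit and 29 small subunit genes in each of the 4 conditions, with footprints left and total RNA right. Each marker is 1 library, filled for replicate 1 and open for replicate 2. Large subunit shares sit at 0.357% to 0.392% in footprints and 0.118% to 0.165% in total RNA, where the replicate 1 library with guide and construct is the highest.

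Gene by gene, the ratio of footprints to total RNA was high for most of the family. The ratio here is the log2 difference between the mean of the footprint groups and the mean of the total RNA groups in 1 edgeR fit, centred on the bulk of genes, and 74 members had enough counts in both assays to be tested. Footprints exceeded total RNA for 62 members and were lower for 8, at an adjusted p under 0.05. This test calls most genes: 86.8% of the 8012 tested passed, 42.5% higher and 44.3% lower, so the split of directions and the size carry more than the count. The median member was at a log2 ratio of 1.67, against -0.03 for all tested genes, with 1.75 over the 46 large and 1.5 over the 28 small subunit genes. Of the 74, 50 (67.6%) lay above the upper quartile of all genes and 24 (32.4%) in the top decile, while 3 lay below the lower quartile. A ratio more than 2-fold above the centre was found for 55 members (74.3%) and for 28.1% of all genes. MRPL35, MRPL50, MRPL51 and MRPS17 passed in neither direction.

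The highest ratio was that of MRPL13, a large subunit protein with a bacterial counterpart, encoded on chromosome 8 (120395437 to 120445150 on GRCh38.p14). Its footprints ran from 100.3 to 126 CPM over the 8 libraries (median 108). Its total RNA ran from 3.62 to 6.79 CPM, on only 11 to 35 counts per library. No footprint library came near any total RNA library, and the log2 ratio was 4.22 ± 0.11 (SE, n = 8 libraries per assay; adjusted p = 3.11e-15). The large subunit genes MRPL40, MRPL43 and MRPL41 followed at 3.92 ± 0.15, 3.8 ± 0.17 and 3.57 ± 0.23. MRPS12, which sits near the decoding site of the small subunit, was at 3.36 ± 0.23. MRPL40 had 47.7 to 72.6 CPM in footprints and 2.79 to 5.51 CPM in total RNA. The latter is 7 to 30 counts per library, so the total RNA sets the precision of MRPL40's ratio. Total RNA counts were also low in some libraries for MRPL43 (9 to 70), MRPL41 (10 to 91) and MRPS12 (12 to 112). Others with the lowest p among those higher were MRPL17 (2.92 ± 0.13), MRPL22 (2.62 ± 0.13), MRPL16 (2.21 ± 0.10), MRPS7 (2.07 ± 0.10) and MRPS30 (1.84 ± 0.09), with adjusted p of 6.94e-12 or less in edgeR.

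At the other end, MRPL19, a large subunit protein at the face between the subunits (chromosome 2, 75646783 to 75662206), had fewer footprints than its total RNA would give at the centre of all genes. It had 33.5 to 57.9 CPM in footprints and 125 to 160 CPM in total RNA, in each of the 8 libraries of an assay, and a log2 ratio of -1.71 ± 0.10 (adjusted p = 1.08e-10). The small subunit genes MRPS25 and MRPS10 were at -1.11 ± 0.10 and -1.07 ± 0.08. MRPL42 was at -0.81 ± 0.12, MRPL3 at -0.59 ± 0.11, MRPL30 at -0.46 ± 0.14, MRPS5 at -0.44 ± 0.10 and MRPS16 at -0.28 ± 0.10. The call of MRPL30 (adjusted p = 0.00694) was lost without the replicate 2 footprint library of the construct alone (0.0679). That of MRPS16 (0.0177) was lost in DESeq2 (0.0532), with no filter on low counts (0.150) and without any 1 of 5 footprint libraries (0.0567 to 0.0921): both of the control, replicate 1 of the construct alone, replicate 1 of the guide alone and replicate 2 of both. From MRPL19 to MRPL13 the ratio spanned 60.7-fold. Across the tested members the log2 ratio correlated at -0.80 (Pearson r) with log2 total RNA CPM and at 0.21 with log2 footprint CPM. The ratio is made from both quantities, so part of each correlation is built in. Members also differed more in total RNA (SD 1.39 on the log2 scale) than in footprints (0.85). The order of members thus went mostly with their total RNA counts. Whether reads in untranslated regions were counted is not known, so the ratio is relative and does not give ribosomes per mRNA.

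**Figure D2:**
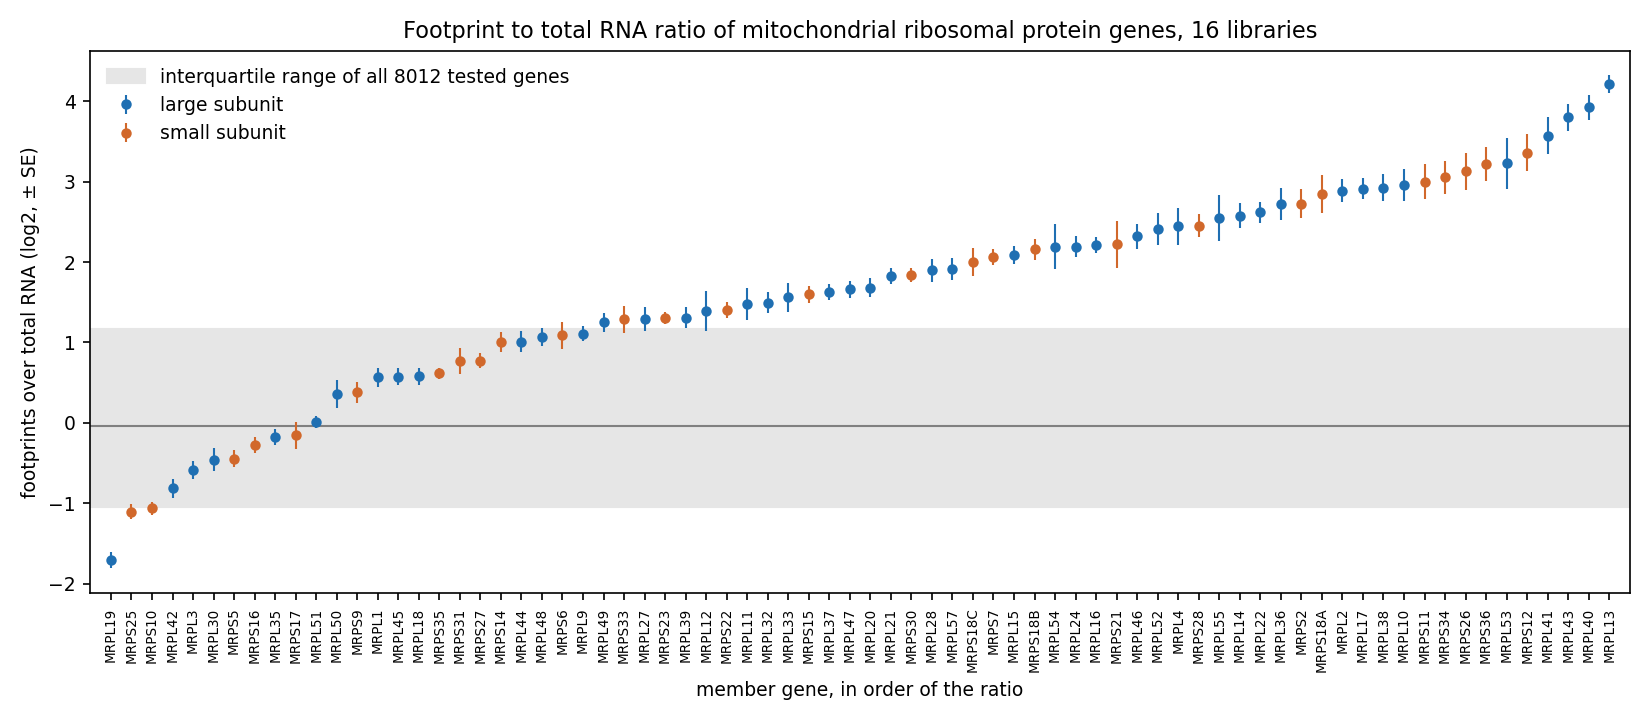
Log2 ratio of footprints to total RNA (vertical axis) for the 74 tested members, in order of the ratio; points are edgeR estimates over 16 libraries, bars are standard errors, blue is large and orange small subunit. The grey band spans the interquartile range of all 8012 tested genes and the line their median of -0.03; most members lie above the band, from MRPL19 at -1.71 to MRPL13 at 4.22.

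Members at either end stayed far apart in each condition. In the order of eGFP guide with control, eGFP guide with construct, tRNA-Ile-GAU guide with control and both, the ratio of MRPL13's mean CPM values was 20.5, 28.7, 18.4 and 17.1. That of MRPL19 was 0.318, 0.305, 0.356 and 0.370 and that of MRPS10 0.536, 0.562, 0.527 and 0.485. MRPL51 stood between, at 1.06, 1.12, 1.16 and 1.09. For MRPL40 the ratio was 18.4, 20.1, 18.8 and 12, the last being 13.7 without the deepest total RNA library.

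Some members cannot be counted well in 1 assay, and the ratio holds fewer of them for that reason. MRPS24, a small subunit protein, had 23 to 63 footprint counts per library but 0 total RNA counts in 7 of 8 libraries and 2 in the eighth; it overlaps the readthrough gene URGCP-MRPS24. MRPL34 had 16 to 38 footprint counts and 1 to 21 total RNA counts, and it overlaps ABHD8. MRPL23 was the reverse, with 0 to 2 footprint counts and 5 to 67 total RNA counts. In all, 32 members overlap another gene of the annotation, and their median log2 ratio was 1.68 against 1.60 for the rest. Further, 42 members have at least 1 pseudogene in RefSeq (106 in all, at most 9 for a member), and reads that such copies share with the gene are uncertain. The 41 tested members with a pseudogene had a median log2 ratio of 1.40 and the 33 without one 2.19, as a description. Uniquely placed reads fell on no gene for 24.8% to 32.6% in footprints and 62.2% to 65% in total RNA. They were ambiguous between genes, and so not counted, for 0.265% to 0.296% in footprints and 1.07% to 1.63% in total RNA. Alignments that were not unique, also not counted, made up 97.0% to 98.8% of those tallied in footprints and 97.2% to 98.1% in total RNA. The part of these losses in the ratios was not tested.

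Many promoters of the family hold short sequence matches that the symbol rule did not use. RefSeq promoter windows, 250 bases before to 50 bases after the start on GRCh38.p14, were found for 69 of the 77 members. The ETS motif CCGGAAG, on either strand, was in the window of 29 of them (42.0%), against 16.5% of protein-coding genes. The YY1 motif AAGATGGC was in 21 (30.4%), against 4.66% of protein-coding genes, and the NRF1 motif GCGCATGC in 6 (8.70%), against 4.89%. Of the 69, 43 held at least 1 of the 3 and 26 held none; the ETS share was 41.5% over large and 42.9% over small subunit genes. The protein-coding genes were not limited to those expressed in these cells, so the shares do not set the family apart from other expressed genes. A match is only a string of letters, and binding of these factors was not measured here. The 3 windows printed here are those of MRPL52, the 1 member with matches to all 3 motifs, and of the chromosome 7 members MRPL32 and MRPS24, whose footprints had the lowest p with the guide. Only the 250 bases before the start are printed, 5′ to 3′ on the gene's strand, with motif matches on either strand in capitals.
MRPL52: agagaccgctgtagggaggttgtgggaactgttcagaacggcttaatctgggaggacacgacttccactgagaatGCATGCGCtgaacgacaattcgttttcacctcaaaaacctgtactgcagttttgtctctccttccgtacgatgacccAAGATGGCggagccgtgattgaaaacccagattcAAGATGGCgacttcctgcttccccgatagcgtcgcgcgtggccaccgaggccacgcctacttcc
MRPL32: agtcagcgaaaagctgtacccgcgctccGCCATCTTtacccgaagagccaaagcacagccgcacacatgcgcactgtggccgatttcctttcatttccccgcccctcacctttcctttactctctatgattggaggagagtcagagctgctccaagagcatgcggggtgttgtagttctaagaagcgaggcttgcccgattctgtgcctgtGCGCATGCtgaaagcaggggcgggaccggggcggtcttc
MRPS24: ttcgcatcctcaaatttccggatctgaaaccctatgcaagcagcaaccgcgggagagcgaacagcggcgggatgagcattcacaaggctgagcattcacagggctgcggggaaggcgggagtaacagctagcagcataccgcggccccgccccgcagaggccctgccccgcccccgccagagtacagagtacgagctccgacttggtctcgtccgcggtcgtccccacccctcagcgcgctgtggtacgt
These stretches are chr14:22829637-22829886 (plus strand), chr7:42932126-42932375 (plus strand) and chr7:43869518-43869767 (minus strand). Counted from the start, the YY1 matches of MRPL52 begin at -98 and -64 and its NRF1 match, on the other strand, at -175, while its ETS match runs across the start and is not in the printed bases. In MRPL32 the YY1 match on the other strand begins at -222 and the NRF1 match at -39. MRPS24 has no match before the start, and its YY1 match lies after it.

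No member passed the test in footprints in any comparison of guide or construct. With the guide, averaged over both constructs, 0 of 76 tested members passed edgeR's quasi-likelihood test and 7 had an unadjusted p under 0.05 (9.21%), against 2.68% of all genes past the adjusted threshold and 13.4% at the unadjusted one. DESeq2 called 0 of the 68 members for which it gave an adjusted p. The median log2 difference of members was -0.02, against 0.01 for all tested genes, and 34 were higher and 42 lower. For 55 of the 76, the 95% interval of the difference lay within 1.5-fold in either direction, and for 75 within 2-fold. The other comparisons were less tight, apart from the construct averaged over guides (59 within 1.5-fold). The interval lay within 1.5-fold for 32 members with the guide alone, 18 with the construct alone, 30 with both and 3 in the interaction. In total RNA it did so for 37 of 75 with the guide and 26 with both, and for the ratio for 22 of 74 and 1. A p that misses the threshold does not show that a gene was the same in both.

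The members of lowest p with the guide were MRPL32, whose protein is matured by a mitochondrial protease before assembly, and MRPS24. MRPL32 footprints were 80.6 and 80.9 CPM with the eGFP guide and control construct and 61.4 and 80.6 CPM with the eGFP guide and tRNA-Ile-UAU construct. With the tRNA-Ile-GAU guide they were 61.2 and 56.8 CPM with the control construct and 44.7 and 59.4 CPM with the tRNA-Ile-UAU construct. All 4 eGFP libraries were above all 4 others, by as little as 61.4 against 61.2 CPM. The log2 difference was -0.50 ± 0.17 (SE, n = 4 libraries per guide; adjusted p = 0.0911 in edgeR). Without replicate 2 of guide and construct, the higher of that pair at 59.4 CPM, it was -0.59, with 1 library left for that condition. Alternatives that kept all libraries called 0 members with the guide.

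MRPS24 footprints were 75.7 and 89.1, 64.2 and 66.9, 44.8 and 52.0, and 67.1 and 45.4 CPM in the same order of conditions. The highest library with the tRNA-Ile-GAU guide lay above both of those with the eGFP guide and tRNA-Ile-UAU construct, so the guides overlapped. Its log2 difference was -0.49 ± 0.17 (adjusted p = 0.112 in edgeR). Without replicate 1 of guide and construct, the higher of that pair at 67.1 CPM, it was -0.66, with 1 library left for that condition. MRPS34 followed at -0.37 ± 0.14 (adjusted p = 0.150). The members of lowest p among those higher were MRPS30 (0.32 ± 0.14), MRPS9 (0.43 ± 0.21) and MRPL44 (0.37 ± 0.20), with adjusted p of 0.281 to 0.395.

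With the guide alone, compared with neither guide nor construct, 0 of 76 passed (1.11% of all genes did) and 5 had an unadjusted p under 0.05 (6.58%, against 9.75% of all genes). MRPS24 was closest, with 82.4 ± 9.51 CPM (SD, n = 2) against 48.4 ± 5.09 CPM, a log2 difference of -0.78 ± 0.23 (SE; adjusted p = 0.0677 in edgeR). It passed under 3 of 14 alternatives: the replicate block, and without replicate 1 or 2 of guide and construct, a condition outside this comparison. MRPL30 (-0.73 ± 0.35) and MRPL32 (-0.46 ± 0.22) came next among those lower, and MRPL16 (0.45 ± 0.20), MRPL1 (0.39 ± 0.23) and MRPL21 (0.32 ± 0.21) among those higher. Across the 76, the sign of the guide difference was the same with either construct for 38: 16 higher in both and 22 lower in both. The sign was the same for 58.1% of all genes, and these 2 comparisons share no library.

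With the construct, averaged over the guides, 0 of 76 passed (0.43% of all genes did), 5 had an unadjusted p under 0.05 (6.58%, against 7.56% of all genes), and the median log2 difference was -0.04. The members named by lowest p were MRPL48 (-0.49 ± 0.17), MRPL2 (-0.36 ± 0.13) and MRPL41 (-0.28 ± 0.14) among those lower. Among those higher they were MRPL10 (0.47 ± 0.23), MRPL3 (0.34 ± 0.17) and MRPS22 (0.28 ± 0.14), and the smallest adjusted p was 0.302. For the construct alone 0 of 76 passed (0.0246% of all genes did) and 4 had an unadjusted p under 0.05 (5.26%, against 5.02% of all genes). MRPL2 (-0.48 ± 0.20), MRPS12 (-0.52 ± 0.23) and MRPL30 (-0.93 ± 0.42) led those lower there, and MRPS22 (0.32 ± 0.21), MRPS18C (0.46 ± 0.32) and MRPL20 (0.34 ± 0.24) those higher.

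With both guide and construct, against neither, 0 of 76 passed (1.93% of all genes did), 7 had an unadjusted p under 0.05 (9.21%, against 11.9% of all genes), and the median log2 difference was -0.08, which became 0.00497 with footprint libraries thinned to equal depth. MRPL14, the large subunit protein to which the assembly factor MALSU1 binds, was lowest in p. Its footprints were 120 and 101 CPM with the eGFP guide and control construct and 76.7 and 67.3 CPM with both. In between were 109 and 111 CPM with the construct alone and 91.9 and 117 CPM with the guide alone. Only the libraries with both lay below all others, at a log2 difference of -0.62 ± 0.20 against neither (SE, n = 2 per group; adjusted p = 0.0879 in edgeR). MRPL32 (-0.68 ± 0.23) and MRPL41 (-0.52 ± 0.19) followed, and MRPS9 (0.64 ± 0.28), MRPL3 (0.39 ± 0.22) and MRPS30 (0.24 ± 0.19) were the higher ones. DESeq2 gave an adjusted p for only 2 members here and 3 with the guide alone, and called 0. In the interaction, the construct's difference with the guide minus that without it, 0 of 76 passed (0.0614% of all genes did) and 6 had an unadjusted p under 0.05 (7.89%, against 5.83% of all genes). MRPL24 (0.67 ± 0.25), MRPS18B (0.62 ± 0.28) and MRPL30 (1.16 ± 0.55) led in 1 direction and MRPL20 (-0.68 ± 0.32), MRPS18C (-0.89 ± 0.42) and MRPL16 (-0.57 ± 0.29) in the other.

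**Figure D3:**
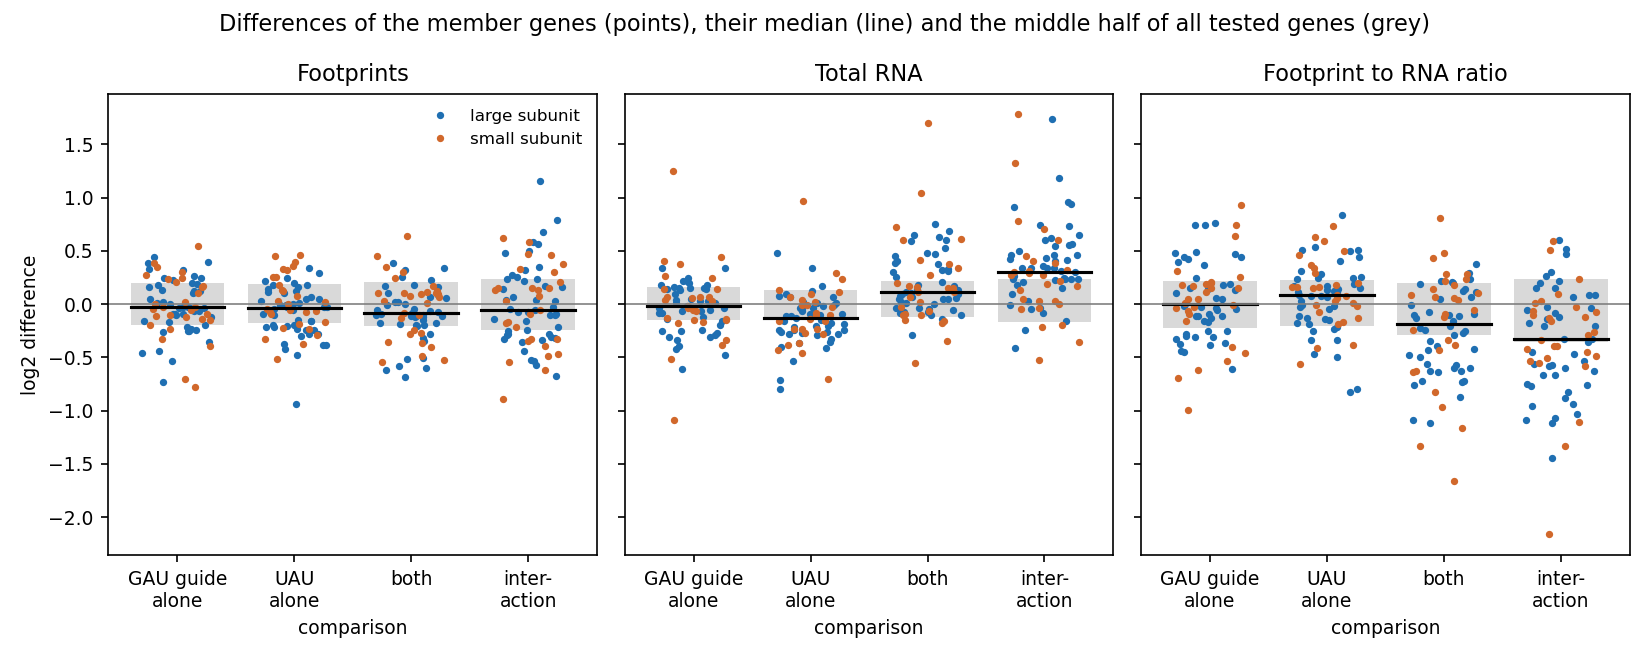
Log2 difference (vertical axis) of each tested member in footprints, total RNA and their ratio, for the guide alone, the construct alone and both, each against neither, and for the interaction. Points are members, black lines their median and grey boxes the interquartile range of all tested genes; sideways spread is for view only. In footprints the medians lie between -0.08 and -0.03, and in total RNA the interaction median is 0.30 and rests on 1 library.

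Position in the genome went with the guide's footprint difference. The family has 4 members on chromosome 7 of GRCh38.p14: MRPL32 (42932376 to 42937857), MRPS24 (43866558 to 43869517), MRPS17 (55951877 to 55956500) and MRPS33 (141002610 to 141014952). They are named because genes of this chromosome were known, from an earlier analysis of these data, to be lower with the guide, so their direction is no independent evidence. All 4 were lower in footprints, with a median log2 difference of -0.42, against -0.01 for the other 72 members, of which 38 were lower. The 371 tested genes of chromosome 7 had a median of -0.39 and genes elsewhere 0.02. In total RNA the 3 tested members were at -0.41 to -0.14. The part of the chromosome in the guide's differences was not tested beyond these values.

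MRPS33, a small subunit protein, had footprints of 29.6 and 29.7 CPM with the eGFP guide and control construct, 25.1 and 27.4 with the construct alone, 22.4 and 23.0 with the guide alone, and 25.6 and 15.6 with both. Its total RNA was 7.96 and 11.3, 8.89 and 13.4, 5.83 and 7.49, and 9.55 and 9.08 CPM. In footprints 3 of the 4 libraries with the tRNA-Ile-GAU guide lay below every eGFP library. In total RNA the guide alone gave the 2 lowest values, and the libraries with both lay within the eGFP range. MRPS17, a small subunit protein with a bacterial counterpart, did not follow: its footprints of 12 to 22.3 CPM with the eGFP guide and 13.3 to 22.4 CPM with the tRNA-Ile-GAU guide overlapped in full, on 7 to 19 counts. Its log2 difference was -0.06.

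**Figure D4:**
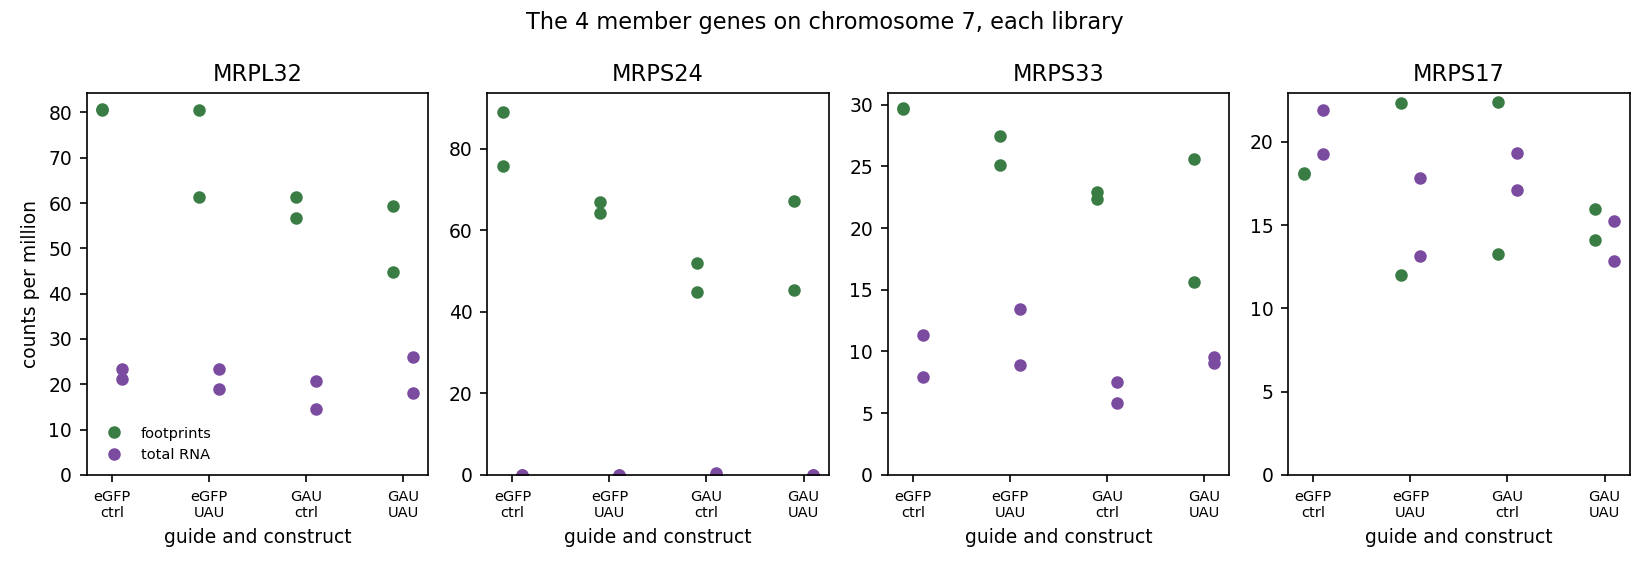
CPM (vertical axis, from 0, with its own range for each gene) of MRPL32, MRPS24, MRPS33 and MRPS17 in each library, by guide and construct; green points are footprints and purple points total RNA, 2 libraries each. MRPL32 footprints run from 61.4 to 80.9 with the eGFP guide and from 44.7 to 61.2 with the tRNA-Ile-GAU guide, MRPS17 shows no such gap, and MRPS24 is at or near 0 in total RNA.

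In total RNA, too, no member passed in any comparison with all 8 libraries. With the guide, 0 of 75 passed (1.08% of all genes did) and 1 had an unadjusted p under 0.05 (1.33%, against 10.5% of all genes). The median log2 difference was 0.11 against 0.02 for all genes. MRPS26 (0.99 ± 0.41), MRPL13 (0.51 ± 0.23) and MRPS6 (0.40 ± 0.19) were named among those higher and MRPS33 (-0.41 ± 0.22), MRPL22 (-0.32 ± 0.18) and MRPS35 (-0.11 ± 0.09) among those lower. With the construct 0 of 75 passed (0% of all genes did) and 1 had an unadjusted p under 0.05 (1.96% of all genes did); MRPL2 (0.57 ± 0.26), MRPL21 (0.27 ± 0.14), MRPL45 (0.20 ± 0.11), MRPS17 (-0.38 ± 0.16), MRPS18B (-0.17 ± 0.18) and MRPS23 (-0.08 ± 0.09) are named.

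With both, 0 of 75 passed (0.0683% of all genes did), 2 had an unadjusted p under 0.05 (2.67%, against 7.62% of all genes), and the median was 0.12. MRPS26 (1.70 ± 0.59), MRPL21 (0.39 ± 0.19) and MRPL45 (0.31 ± 0.16) were named among those higher and MRPS17 (-0.55 ± 0.22), MRPL22 (-0.29 ± 0.25) and MRPS28 (-0.34 ± 0.30) among those lower. With the guide alone 0 of 75 passed (0.0256% of all genes did) and 3 had an unadjusted p under 0.05 (4%, against 6.94% of all genes): MRPL42 (-0.42 ± 0.16), MRPL22 (-0.61 ± 0.27) and MRPS36 (-1.08 ± 0.48). MRPS26 (1.25 ± 0.63), MRPL18 (0.34 ± 0.18) and MRPS6 (0.38 ± 0.27) led those higher there. With the construct alone 0 of 75 passed, as of all genes (0%), and 0 had an unadjusted p under 0.05 in edgeR (1.99% of all genes did), with DESeq2 calling 0 as well. The median there was -0.13, against 0.002 for all genes. It ran from -0.22 to -0.03 when the processing was varied or 1 library was left out. MRPS23 (-0.23 ± 0.13), MRPS17 (-0.38 ± 0.23) and MRPL3 (-0.21 ± 0.13) led those lower. Those higher were led by MRPS26 (0.97 ± 0.65), MRPL10 (0.48 ± 0.42) and MRPL18 (0.17 ± 0.18).

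Among the total RNA comparisons, the interaction had the median farthest from 0. Of 75 members 62 were above 0, with a median of 0.30 against 0.02 for all genes, and yet 0 passed (0% of all genes did) and 4 had an unadjusted p under 0.05 (5.33%, against 2.66% of all genes). MRPS36 (1.78 ± 0.63), MRPL42 (0.61 ± 0.22) and MRPL30 (0.55 ± 0.22) led, and MRPL18 (-0.41 ± 0.25), MRPL51 (-0.16 ± 0.16) and MRPS9 (-0.21 ± 0.23) were the lower ones named. Without the replicate 1 library of guide and construct, the median was -0.02. The guide's median went from 0.11 to -0.01, that of both against neither from 0.12 to -0.12 and that of the construct from 0.01 to -0.07. Of the 48 values named for total RNA and the ratio in these comparisons and the interaction, 17 moved by over 1.5 times without it and 0 changed sign. In total RNA with the guide, MRPS26 became 0.46, MRPL22 -0.51 and MRPS35 -0.05, and with both MRPS26 became 0.63 and MRPL22 -0.65. With the construct MRPL2 became 0.24, MRPS18B -0.34 and MRPS23 -0.05, and in the interaction MRPL18 became -0.25 and MRPL51 -0.06.

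Library by library, the median member of that replicate 1 library lay 0.26 above its own mean over the 8 total RNA libraries on the log2 scale, with 57 of 75 members above it. Replicate 2 of the same condition lay at -0.09, replicate 1 with the construct alone at -0.14, and the other 5 between -0.03 and 0.05. The median over all tested genes stayed within 0.01 of 0 in each library. Footprint libraries differed less, from -0.05 to 0.07. Replicates of a member differed by a median of 0.30 on the log2 scale in total RNA and 0.24 in footprints, against 0.22 and 0.27 for all genes.

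**Figure D5:**
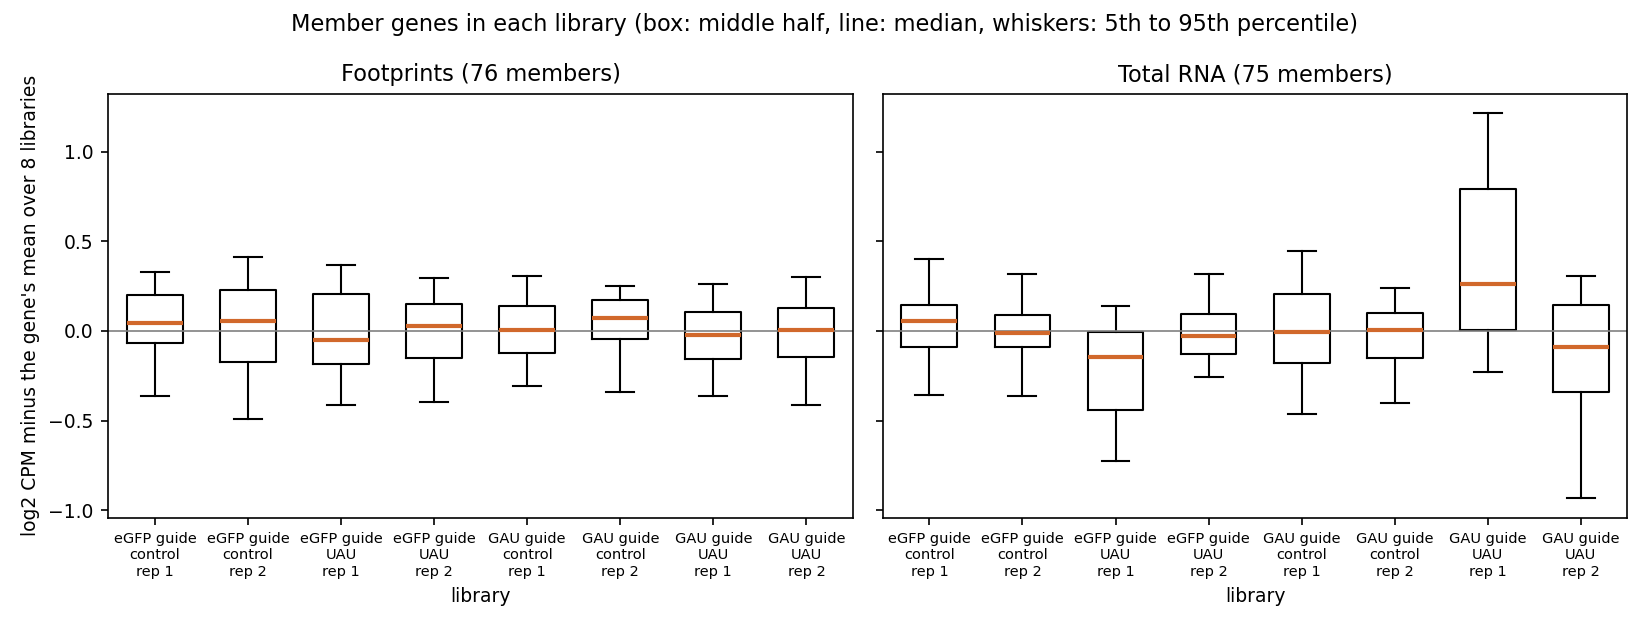
Deviation of each tested member from its own mean over the 8 libraries of the assay (log2 CPM, vertical axis), for footprints (76 members) and total RNA (75 members). Boxes span the interquartile range of members, orange lines the median, whiskers the 5th to 95th percentile; the total RNA library with guide and construct, replicate 1, has its median at 0.26 and the others lie between -0.14 and 0.07 in both assays.

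MRPL12, which forms the stalk that recruits translation factors to the large subunit, went far beyond this median shift. Its total RNA was 43.4 and 38.9 CPM with the eGFP guide and control construct, 27.1 and 48.1 with the construct alone, 53.2 and 34.9 with the guide alone, and 108 and 21.2 with both. The highest and the lowest of the 8 libraries were thus replicates of 1 condition, while its footprints lay between 119 and 145 CPM in all 8. The same held for MRPL4, near the exit tunnel, with 42.4 and 8.33 CPM in the total RNA replicates of guide and construct and 10.0 to 20.8 CPM elsewhere. MRPL52 had 43.7 and 11.4 CPM there and 12 to 22.7 CPM elsewhere. MRPS12 had 20.6 and 4.54 CPM there and 4.64 to 9.84 CPM elsewhere. These members were picked after their values were seen, for the wide gap between the replicates. Others were close there, such as MRPL13 at 6.37 ± 0.08 CPM (SD, n = 2) and MRPL16 at 19.3 ± 1.29 CPM.

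Calls of members in total RNA appeared only when 1 of these replicates stood alone for its condition, assumed to vary like the other groups. With replicate 1 alone, 11 members were higher with the guide (15.5% of all genes were then called), 18 with both against neither (15.8%), 7 in the interaction (4.42%) and 2 with the construct (0.604%). With replicate 2 alone, 0 passed with the guide (4.67% of all genes were called), 2 were lower with both (MRPL41 and MRPL23; 2.51%) and 2 lower with the construct (MRPL4 and MRPL52; 1.29%). With both and with the construct the direction was thus opposite between the replicates, and the cause was not tested.

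The ratio of footprints to total RNA did not pass for any member in a comparison of conditions. In each of the 6 comparisons 0 of 74 passed, as 0% of all 8012 genes did. Unadjusted p was under 0.05 for 4 members with the guide, 2 with the construct, 5 with both, 1 with the guide alone, 0 with the construct alone and 2 in the interaction. These are 5.41%, 2.7%, 6.76%, 1.35%, 0% and 2.7% of the members, against 4.68%, 2.96%, 4.14%, 3.27%, 2.75% and 2.55% of all genes. DESeq2 called 0. The median log2 difference of members was -0.10 with the guide, -0.04 with the construct, -0.18 with both and -0.33 in the interaction, against 0.00, -0.02, -0.02 and -0.04 for all genes. Without the replicate 1 total RNA library of guide and construct, these became 0.06 with the guide, 0.11 with the construct, 0.10 with both and 0.04 in the interaction. With that library alone for its condition, 10 members were lower with the guide (5.43% of all genes were then called), 1 with the construct (0.237%), 12 with both (7.64%) and 2 in the interaction (1.07%).

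Among the members named for the ratio with the guide, MRPL14 (-0.81 ± 0.32), MRPL57 (-0.61 ± 0.27) and MRPS26 (-1.05 ± 0.47) were lower and MRPL44 (0.52 ± 0.26), MRPS9 (0.50 ± 0.26) and MRPS28 (0.53 ± 0.28) higher. With both, MRPL57 (-1.11 ± 0.37), MRPL14 (-1.08 ± 0.44) and MRPS26 (-1.66 ± 0.68) were lower and MRPS9 (0.81 ± 0.35), MRPS28 (0.48 ± 0.39) and MRPS23 (0.22 ± 0.20) higher. With the construct, MRPL2 (-0.93 ± 0.29), MRPL21 (-0.50 ± 0.20) and MRPL45 (-0.45 ± 0.21) were lower and MRPS22 (0.30 ± 0.19), MRPL3 (0.32 ± 0.22) and MRPS9 (0.31 ± 0.26) higher. With the guide alone, MRPL42 (0.76 ± 0.33), MRPL22 (0.74 ± 0.36) and MRPL44 (0.74 ± 0.37) were higher and MRPS26 (-0.99 ± 0.70), MRPS18B (-0.46 ± 0.35) and MRPL57 (-0.45 ± 0.38) lower. For the construct alone the named members ranged from -0.83 ± 0.43 (MRPL2) to 0.54 ± 0.35 (MRPL1), with MRPL30, MRPL45, MRPL20 and MRPS22 between. In the interaction they ranged from -2.16 ± 0.85 (MRPS36) to 0.59 ± 0.52 (MRPS9), with MRPS18C, MRPL20, MRPL18 and MRPS25 between. MRPS36 total RNA had 5 to 34 counts and MRPS26 5 to 49, so their ratios carry the errors of low counts. Without the total RNA library that stood apart, the guide's ratio difference became -0.41 for MRPL14 and -0.52 for MRPS26, and with both -0.31 for MRPL14, -0.60 for MRPS26 and 0.14 for MRPS23. MRPL2 became -0.61 with the construct and MRPL18 0.28 in the interaction.

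Genes that work with the mitochondrial ribosome were taken from a list of 43: subunits not named MRP, translation factors and assembly factors. All were found among the symbols, and 37 were tested in footprints, 41 in total RNA and 35 in the ratio. Of these, 1 fell in footprints with the guide alone (0.651% of all genes did) and 1 with both (1.4%), and 1 fell in total RNA with the guide (0.896%); 0 rose in any of the 18 comparisons of conditions.

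MALSU1, an assembly factor of the large subunit that binds MRPL14, was the one in footprints. Its footprints were 74.0 and 67.7 CPM with the eGFP guide and control construct, 50.2 and 36.0 with the construct alone, 38.9 and 37.5 with the guide alone, and 45.8 and 31.3 with both. The control condition lay above all the others, and the other conditions overlapped. It fell by 0.90 ± 0.25 on the log2 scale with the guide alone (adjusted p = 0.0436 in edgeR) and by 0.85 ± 0.25 with both (0.0476). Both calls were lost with no filter on low counts (adjusted p = 0.0797 and 0.0773) and with thinned footprint libraries (0.306 and 0.266). That with the guide alone was lost without any 1 of the 4 eGFP libraries or the 2 of the guide alone (0.0536 to 0.371), and that with both without any 1 of the eGFP libraries or replicate 2 of both (0.0519 to 0.352).

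WBSCR16 (RCC1L), which takes part in assembly of both subunits, had total RNA of 57.7 and 55.8, 62.2 and 62.3, 45.9 and 42.8, and 41.5 and 39.6 CPM in the order used above. All libraries with the tRNA-Ile-GAU guide were below all with the eGFP guide. It fell by 0.49 ± 0.09 with the guide (adjusted p = 0.0364 in edgeR, 0.106 in DESeq2, and 0.166 to 0.236 without any 1 of the libraries other than those with guide and construct). MALSU1, WBSCR16, GTPBP10 and FTSJ2 (MRM2) are the 4 of the list on chromosome 7, where genes were lower with the guide as a whole. FTSJ2 footprints differed by -0.70 ± 0.26 with the guide (adjusted p = 0.165).

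In the ratio over all conditions, 19 of the 35 tested partners were higher and 13 lower, where 42.5% of all tested genes were higher and 44.3% lower. The median partner was at 0.56, against -0.03 for all tested genes. SLIRP, which stabilises mitochondrial mRNAs together with LRPPRC, was highest (3.83 ± 0.13), followed by the small subunit protein CHCHD1 (3.74 ± 0.19) and the large subunit protein ICT1 (3.65 ± 0.17). LRPPRC itself was at -0.24 ± 0.07. The initiation factors MTIF2 (-2.11 ± 0.10) and MTIF3 (-1.30 ± 0.11) and the assembly factor NGRN (-1.94 ± 0.12) were the lowest. The elongation factor TUFM stood at 1.79 ± 0.09 and the small subunit protein DAP3 at -0.63 ± 0.09.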

How the data were processed

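The deposited values are raw counts of reads per gene symbol, 1 file per library. The submitters' processing notes list hg38 as build and, as tools, HTSeq, STAR 2.5.2a and cutadapt 1.17; the annotation, the strand setting and the HTSeq version are not given in the sources used here. A symbol that a footprint file does not list was given 0, and HTSeq's summary lines were used for depth only. Samples were grouped by assay, guide and construct as labelled. Genes kept by filterByExpr (minimum count 10, minimum total 15) were scaled by TMM and tested with edgeR 4.0.16's quasi-likelihood test in R 4.3.3, on group means of the 8 libraries of an assay (8143 genes in footprints, 11720 in total RNA) or of all 16 (8012 genes, ratio). Benjamini-Hochberg adjustment ran over all genes of a fit, with a threshold of 0.05. Standard errors of log2 differences were derived from this test, as the absolute difference divided by the square root of its F statistic. The 95% intervals were built from these standard errors. CPM are counts per 1000000 counts on genes. The biological coefficient of variation was 6.71% in footprints, 14.3% in total RNA and 12.5% over both. The scripts were tested on simulated data.

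Alternatives were DESeq2 1.42.0, its size factors in edgeR, no filter, a replicate block, footprints thinned to 358340 counts, no chromosome 7 genes, and leaving out each library. The members, lists and rules were chosen with earlier results of these data known. Named were members past the threshold (the 8 of lowest p in each direction where over 12 passed), otherwise the 3 of lowest p in each direction, the 5 highest and 5 lowest ratios, chromosome 7 members, members that failed the filter, and partners past the threshold; others were chosen after their values were seen. Isoleucine shares and levels per coding length, which were planned, were not analysed here. Positions and promoters are from RefSeq (GRCh38.p14).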

Additional observations from a re-analysis of the deposited data

How the results depend on the processing

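Leaving out 1 library at a time gave 0 to 1 members called in footprints with the guide and 0 to 1 with the guide alone. In total RNA it gave 0 to 11 with the guide, 0 to 2 with the construct, 0 to 18 with both and 0 to 7 in the interaction. In the ratio it gave 0 to 10 with the guide, 0 to 1 with the construct, 0 to 12 with both and 0 to 2 in the interaction, the high ends of total RNA and of the ratio arising without the replicate 2 total RNA library of guide and construct. Members called for the ratio over all conditions, 70 with all libraries, were 69 to 72 on leaving out a library and 68 to 73 under the other alternatives. The other comparisons kept 0 calls under every alternative run, though DESeq2 gave few members an adjusted p in some.

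The replicate block gave 1 member called in footprints with the guide alone (MRPS24, adjusted p = 0.0494). With it WBSCR16 (0.0708) and, for the ratio, MRPL30 (-0.28, adjusted p = 0.189) lost their calls, and no other count of calls moved by over 1.5 times. The labels do not say that replicate numbers pair the libraries. The difference between the replicates of a group, taken in the order of their numbers, was compared between groups over all tested genes. It correlated at -0.04 to 0.06 between footprint groups and -0.42 to 0.36 between total RNA groups. These values do not settle whether same-numbered libraries were paired.

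On leaving out 1 library, signs turned for 3 named members, of which none had passed. MRPS18C footprints with the construct alone ran from -0.0133 (without replicate 2 of the control) to 1.2, MRPS22 footprints there from -0.0019 (without replicate 1 of the construct alone) to 0.70, and MRPS28 total RNA with both from -0.64 to 0.0678 (without replicate 2 of the control). With no chromosome 7 genes, the median ratio of the 71 members left was 1.83. Thinned footprints moved the footprint median with both from -0.08 to 0.00497. Depth limits both assays: the median member had 64 counts per total RNA library and 41 per footprint library, and 64 and 70 of the 77 members had 10 or more in every library.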
